A study of Mus musculus with 16 samples.

Results

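RNA from the hippocampus of mice without APLP2 was compared with RNA from wild-type hippocampus, 4 arrays labelled APLP2-/- (called APLP2_KO here) against 4 labelled wild type (WT). Membership follows the sample titles, and the comparison uses 8 of the 16 arrays of the series. The other arrays are 4 of mice labelled APP-/- (APP_KO) and 4 labelled APP-/-; APLP2-/- (N_dCKO), which the series title describes as a neuronal double conditional knockout. All 16 samples are labelled male, 2 months old and of strain C56/BL6. The promoter that drove the deletion, the cells that carried it and the exons removed from Aplp2 are not given in the sources used here. Nothing in the labels says that the 4 samples of a group came from separate animals, so the p-values may rest on technical spread alone. In bulk tissue, fewer cells of a type and less RNA per cell cannot be told apart.

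APLP2 is a membrane protein of the amyloid precursor family, which in mammals also holds APP and APLP1. The proteins have a large extracellular part, 1 membrane span and a short cytoplasmic tail; they are cut by alpha-, beta- and gamma-secretases, and the tail binds adaptor proteins such as those of the Fe65 and Mint families. Only APP carries the amyloid-beta sequence. APP and APLP2 can stand in for each other in part: mice without either one are viable, while mice without both from conception die soon after birth, which is why a conditional double knockout is used to study the adult hippocampus.

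The values are MAS5 signals, a measure of probe-set brightness on a linear scale that was scaled to the same trimmed mean on every array. The median signal lay between 79.7 and 96.9 on the 8 arrays, and correlations between arrays were 0.9854 or higher. The Gapdh signal at the 3' end over that at the 5' end, a ratio that rises as RNA degrades, was 0.764 ± 0.015 in WT (SD, n = 4) and 0.779 ± 0.031 in APLP2_KO, with overlapping arrays and an exact two-sided permutation p of 0.457. In APP_KO the ratio was 0.78 ± 0.026 and in N_dCKO, the highest group, 0.813 ± 0.017. Those arrays overlapped as well (highest APP_KO 0.806, lowest N_dCKO 0.797). With 4 arrays a group, log2 fold changes had a median SE of 0.098, and this number of arrays limits the precision. A gene is called here when its Benjamini-Hochberg adjusted p in limma was below 0.05 over 11668 genes. Fold changes are on the log2(signal + 9) scale, which understates those of dim genes, and stand with their SE.

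Aplp2 fell to 19.4% of its WT signal. The 4 WT arrays read 6186, 5857, 6168 and 5725, and the 4 APLP2_KO arrays read 1235, 1501, 847.1 and 1065, a log2 fold change of -2.39 ± 0.12 (adjusted p = 1.87e-10). No array of either group came near the other group. The other 4 Aplp2 probe sets were lower in all 4 APLP2_KO arrays as well, at 40.6%, 23.8%, 10.6% and 8.42% of WT, each with the smallest p that an exact permutation of 4 against 4 arrays can give (0.0286). The signal that was left differed by probe set, and which of them lie in the deleted part is not known here.

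**Figure D1:**
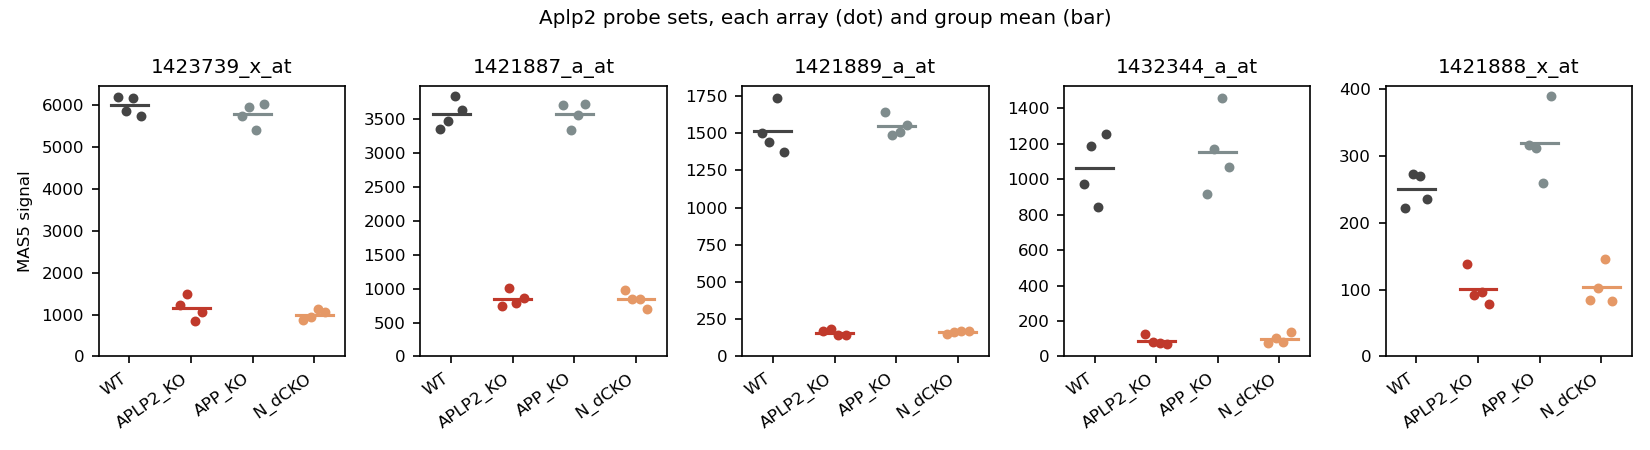
MAS5 signal (linear axis from 0) of the 5 Aplp2 probe sets in every array of the 4 groups; dots are arrays and bars are group means. In each panel all 4 APLP2_KO arrays lie below all 4 WT arrays.

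The other family members gave no call. App was at 18500 ± 1100 (SD, n = 4) in WT and 19650 ± 1410 in APLP2_KO, a log2 fold change of 0.09 ± 0.07 (adjusted p = 0.839). Aplp1, the family member restricted largely to the nervous system, had a log2 fold change of 0.04 ± 0.06 (adjusted p = 0.939), which turned to -0.04 when arrays were centred on their medians. The arrays of both genes overlapped between the groups.

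Beyond Aplp2 the comparison called 14 genes. In all, 15 of 11668 genes were called (0.129%), 7 higher (0.06%) and 8 lower (0.0686%) in APLP2_KO. The 7 that rose were Fxyd2, 2900052N01Rik, Galc, Uggt2, Trub2, Klf10 and Ift46; the 8 that fell were Aplp2, Pdgfd, Mpeg1, Htr3a, Zfp874a, Coro2b, Rpp25 and Ddx6. Of the 15, 9 lie on chromosome 9, as Aplp2 itself does. At an unadjusted p below 0.05 there were 868 genes (7.44%), 356 of them higher (3.05%). The count fell to 9 without WT array 1, without WT array 2 or without WT array 3, and to 8 with the Gapdh ratio as a covariate. Centring arrays on their medians gave 4 higher and 11 lower calls in place of 7 and 8.

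Among the called genes on other chromosomes, Galc had the smallest p. Galc encodes galactosylceramidase, the lysosomal enzyme that breaks down the myelin lipid galactosylceramide and is deficient in Krabbe disease. Its WT arrays read 379, 344.1, 321.8 and 337.6, and its APLP2_KO arrays 573.7, 672.9, 614.1 and 671.3. The groups did not overlap, and the rise was 0.86 ± 0.10 on the log2 scale (adjusted p = 0.00014). Only 1 of its 3 probe sets was bright enough to be tested; the other two read between 6.16 and 51.97 on all 8 arrays and did not differ. The other lysosomal enzymes on the list moved little: of 25 tested, Galc alone was called and the median log2 fold change was 0.01. Of 16 genes of glycosphingolipid synthesis and breakdown, again Galc alone was called. Markers of myelin and oligodendrocytes gave no call among 17, with 13 negative log2 fold changes.

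Mpeg1 encodes perforin-2, a pore-former of macrophages and microglia, and fell. Its signals were 597.9, 580.9, 547.4 and 499.8 in WT and 214.8, 234, 254.9 and 309.7 in APLP2_KO, so every knockout array lay well below every WT array. The log2 fold change was -1.12 ± 0.14 (adjusted p = 0.000439).

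The remaining calls off chromosome 9 were 3 rises and 1 fall. Trub2, a mitochondrial pseudouridine synthase, read 302.5 to 325.3 in WT and 451.2 to 583.5 in APLP2_KO and rose by 0.66 ± 0.10 (adjusted p = 0.0062); its other 2 tested probe sets had log2 fold changes of 0.70 and 0.51 and gave no call in limma (adjusted p = 0.206 and 0.327). With arrays centred on their medians Trub2 was at 0.58 and lost its call (limma adjusted p = 0.0763). Klf10, a transcription factor induced by TGF-beta, rose from 549.6 ± 11.5 (SD, n = 4) to 779.2 ± 70 (log2 fold change 0.49 ± 0.09, adjusted p = 0.0351). The WT arrays of Klf10 were nearly level, at 535.1 to 562. It stood on the list of immediate early genes, where it was the single call among 24.

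Uggt2 is a homologue of the enzyme that reglucosylates misfolded glycoproteins in the endoplasmic reticulum (ER). It rose from 180.5 ± 12.9 to 336.4 ± 67 (log2 fold change 0.85 ± 0.15, adjusted p = 0.0197). Its other probe set, too dim to be tested, went from 48.86 ± 13 to 35.85 ± 22.2 (-0.54) with overlapping arrays. The zinc-finger gene Zfp874a fell from 360.2 ± 38.4 to 194.9 ± 32.6 (-0.87 ± 0.15, adjusted p = 0.0226). Groups did not overlap on the tested probe set of either gene. Galc, Mpeg1 and Trub2 stayed called in all 8 fits that each left out 1 array of the comparison, whereas Zfp874a lost its call in 4, Uggt2 in 5 and Klf10 in 7.

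On chromosome 9 the fall of Pdgfd was the deepest after Aplp2 among called genes. Pdgfd encodes platelet-derived growth factor D, a ligand of the PDGF beta receptor. Its WT arrays read 360.5, 361, 284.6 and 318.3 and its APLP2_KO arrays 139, 115.2, 106.7 and 99.02, which is 34.7% of WT (log2 fold change -1.46 ± 0.23, adjusted p = 0.0062). Only the brightest Pdgfd probe set was tested. Its other probe sets, too dim to be tested, had means of 69.97 and 15.12 in WT. In APLP2_KO these were 69.29 and 12.1 (log2 fold changes -0.02 and -0.40). The other 5 PDGF ligands and receptors gave no call.

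Fxyd2, the gamma subunit that tunes the sodium pump, rose. It read 161.4, 141.3, 190.6 and 218.5 in WT and 336.3, 541.6, 364.3 and 359.4 in APLP2_KO. The groups were apart, with APLP2_KO array 2 far above its own group (log2 fold change 1.12 ± 0.17, adjusted p = 0.00497). Its other 2 tested probe sets had log2 fold changes of 0.98 and 1.04. None of the other 9 sodium pump genes tested was called.

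2900052N01Rik, a transcript of unassigned function, read 1222, 1106, 972.6 and 948.3 in WT and 1984, 2307, 2792 and 1674 in APLP2_KO. It rose by 1.02 ± 0.16 (adjusted p = 0.00586), with no overlap of the groups. Ift46, a subunit of the intraflagellar transport complex that builds cilia, rose from 1037 ± 80.3 to 1421 ± 145 (0.45 ± 0.08, adjusted p = 0.0292). It was the single call among 18 intraflagellar transport genes.

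Ddx6 and Coro2b fell on the probe set with the highest signal only. Ddx6 is a DEAD-box helicase of mRNA decapping and P-bodies. Its brightest probe set read 3994, 3977, 3761 and 3774 in WT and 2469, 2417, 2358 and 2951 in APLP2_KO (log2 fold change -0.61 ± 0.08, adjusted p = 0.0011). Its other 2 tested probe sets had log2 fold changes of 0.33 and 0.22, both uncalled, and the mean over its probe sets was also uncalled. Coro2b, an actin-binding coronin, read 3742 to 4200 in WT and 1953 to 3017 in APLP2_KO on the probe set used (-0.68 ± 0.12, adjusted p = 0.0232), while its other probe set was at -0.05. For these genes the array shows a change at 1 probe set, not over the whole transcript.

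Htr3a, a subunit of the ionotropic serotonin receptor found on a class of interneurons, read 353.1, 251.3, 248.4 and 254.5 in WT and 92.13, 118.5, 172.5 and 146.8 in APLP2_KO. It fell by 1.03 on the log2 scale (SE 0.19, adjusted p = 0.0253), without overlap. No other of the 19 interneuron genes tested was called. Rpp25, a subunit of the ribonuclease P and MRP complexes, fell from 359.2 ± 19.4 to 226.5 ± 42.6 (-0.66 ± 0.13, adjusted p = 0.047). Pdgfd, Fxyd2, 2900052N01Rik and Ddx6 stayed called in all 8 fits that left out 1 array, whereas Htr3a, Ift46 and Coro2b lost the call in 6 each and Rpp25 in 7.

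**Figure D2:**
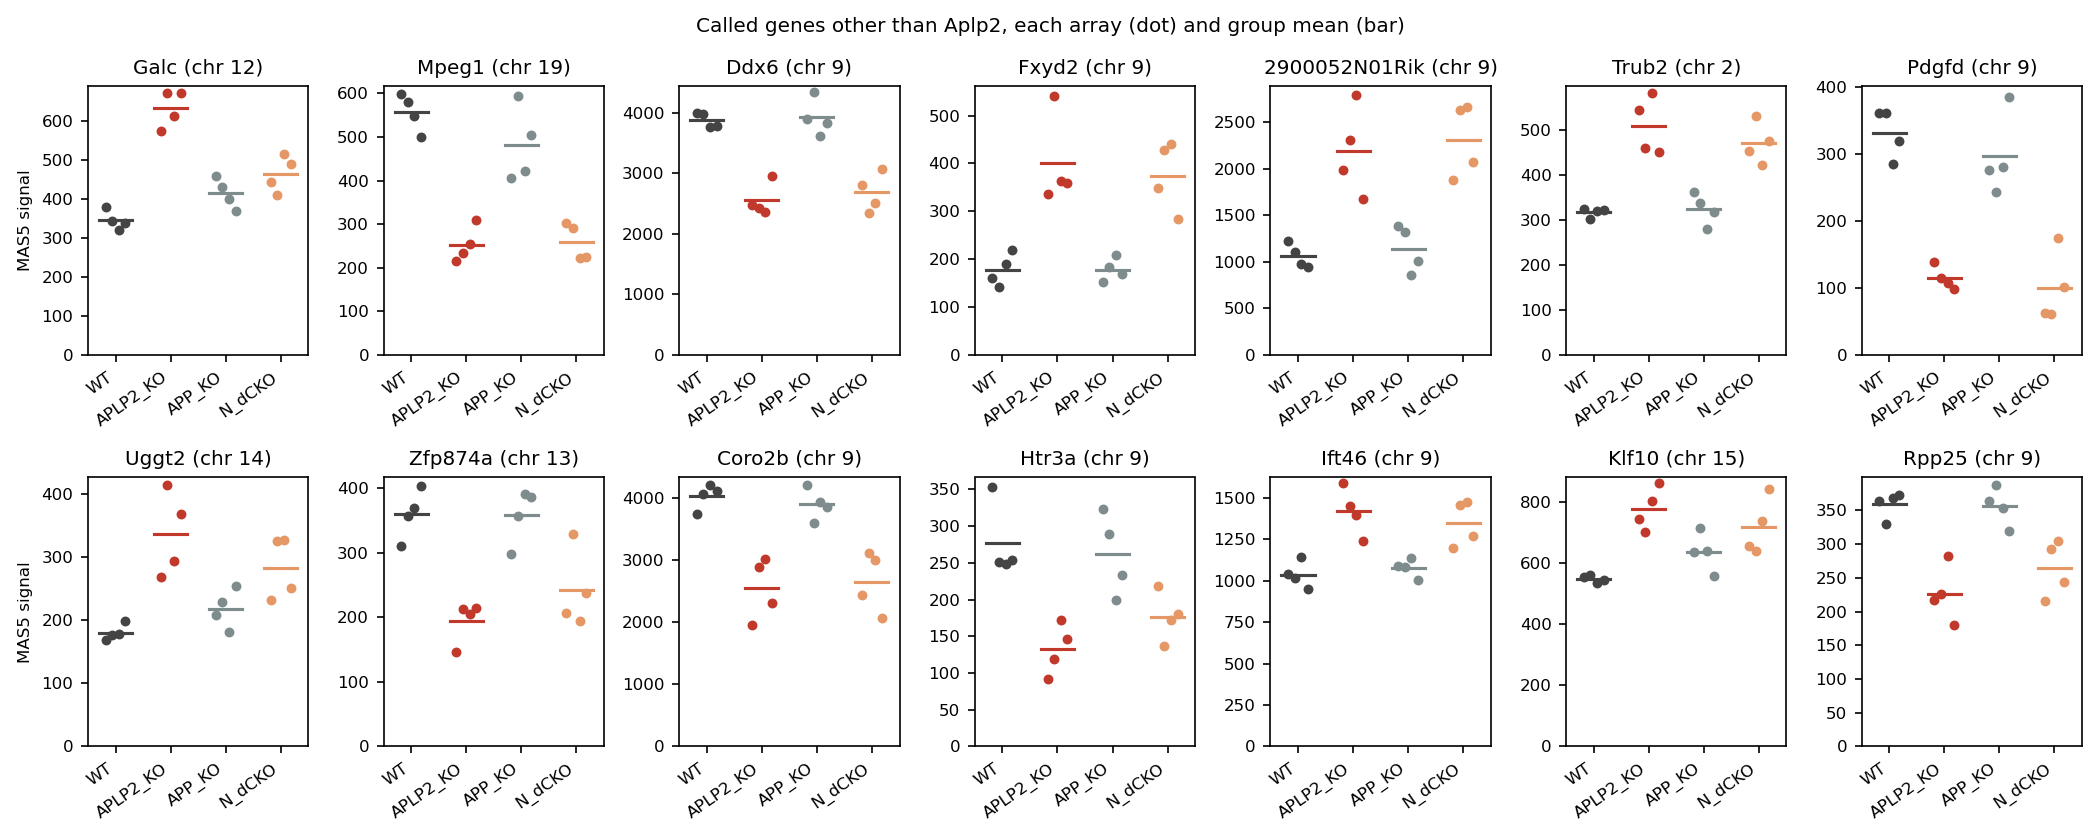
MAS5 signal (linear axis from 0) of the 14 called genes other than Aplp2 in every array of the 4 groups, with the chromosome of each gene; dots are arrays and bars are group means. In every panel the 4 APLP2_KO arrays lie on one side of the 4 WT arrays, and the N_dCKO mean lies on the same side of the APP_KO mean.

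The 13 genes that come next by p, among those whose groups did not overlap, had adjusted p-values between 0.052 and 0.128 and were not called. A fit with the sample number as a block, run as an alternative, called 11 of the 13. Among all tested genes, 513 (4.4%) had groups that did not overlap, with APLP2_KO higher in 199 (1.71%) and lower in 314 (2.69%). Card10, a scaffold of NF-kappaB signalling, went from 210.2 ± 70.7 to 401.4 ± 75.8, a log2 fold change of 0.94 ± 0.19. Exosc9, a subunit of the RNA exosome, went from 1268 ± 53.5 to 710.6 ± 236 (-0.89 ± 0.18). Filip1, a filamin-binding protein, had a log2 fold change of 0.92 ± 0.19, and Elovl5, an elongase of polyunsaturated fatty acids, one of 0.25 ± 0.05. The adjusted p of these 4 was 0.052, as was that of Neo1, the netrin and RGM receptor neogenin (0.33 ± 0.07).

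The other 8 held Selplg (-0.44 ± 0.09), which encodes the P-selectin ligand and is expressed by microglia in brain, and Mto1 (-0.45 ± 0.09), which modifies mitochondrial tRNAs. Cetn4, a centrin, had a log2 fold change of -0.98 ± 0.22, and Nxpe4 one of -0.96 ± 0.21. Pla2g6, a calcium-independent phospholipase, was at 0.54 ± 0.12. Tlcd4, Pip4k2c and Arhgef18 were at -0.48, -0.48 and -0.31.

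The N_dCKO and APP_KO arrays give a second comparison of mice without and with Aplp2, on a background without APP. It shares no array with the first, but same-numbered WT and APP_KO arrays deviated together (correlations 0.19 to 0.3). So did, to a lesser degree, APLP2_KO and N_dCKO arrays (0.082 to 0.2). The comparisons also share the variance of each gene, which came from the same fit to all groups, so a gene has the same SE in both. A gene with a low variance in that fit is therefore favoured for a small p in both. What part the shared deviations and the shared variance have in the agreement below was not tested. The double knockout is also described as conditional and neuronal, so N_dCKO and APP_KO may differ in more than Aplp2. The second comparison called 41 genes (0.351%), 34 of them lower (0.291%). There, 7.71% of all genes had an unadjusted p below 0.05 and 3.99% had arrays that did not overlap. All 15 genes called in APLP2_KO against WT had the same sign there, 13 had an unadjusted p below 0.05, and 10 had arrays that did not overlap. Aplp2, lost by genotype in both comparisons, is among the 15. Of all 868 genes with an unadjusted p below 0.05 in the first comparison, 72.1% had the same sign in the second. With the same sign, 21.2% of the 868 also had an unadjusted p below 0.05 there. Both comparisons called 8 genes: Aplp2, Pdgfd, Ddx6, 2900052N01Rik, Mpeg1, Fxyd2, Trub2 and Coro2b, which is 53.3% of the 15 and 19.5% of the 41. On chromosome 9 these were 6 of 9 called genes, and on other chromosomes 2 of 6. With only the groups compared in each fit, the first comparison called 21 genes, the second 9 and both 4.

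Pdgfd had a log2 fold change of -1.46 in the first comparison and -1.59 in the second, and its N_dCKO arrays read 62.37, 60.45, 173.7 and 101.8 against 276, 243.1, 280 and 384.6 in APP_KO. 2900052N01Rik was at 1.02 in both, Fxyd2 at 1.12 and 1.02, and Ddx6 at -0.61 and -0.55. Mpeg1 was at -1.12 and -0.86. All 4 N_dCKO arrays of each of these genes lay on the same side of all 4 APP_KO arrays as the knockout arrays did of WT. Of the 13 next genes, all 13 had the same sign, beside 72.1% of all genes with an unadjusted p below 0.05 in the first comparison. Most genes behind that share had larger p-values than the 13. On chromosome 9, Aplp2 left out, the share was 84.6%, and 5 of the 13 lie there (Filip1, Elovl5, Neo1, Mto1 and Nxpe4). The second comparison called 4 of the 13: Card10 (1.16), Exosc9 (-1.06), Neo1 (0.43) and Cetn4 (-1.29).

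Of the called genes, Galc differed most between the comparisons by p. Its APP_KO arrays read 460.7, 432.3, 400.2 and 370.5 and its N_dCKO arrays 443.1, 409.9, 515.4 and 489, which overlap, with a log2 fold change of 0.16 against 0.86 in the first. The difference of the 2 fold changes was -0.70 ± 0.13 with an unadjusted p of 4.77e-05 and an adjusted p of 0.556. Klf10 (0.17 against 0.49) and Uggt2 (0.36 against 0.85) had unadjusted p-values of 0.0233 and 0.0307 for that difference. No gene was called for it in limma, where 485 genes (4.16%) had an unadjusted p below 0.05; without N_dCKO array 3 there were 11 calls.

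**Figure D3:**
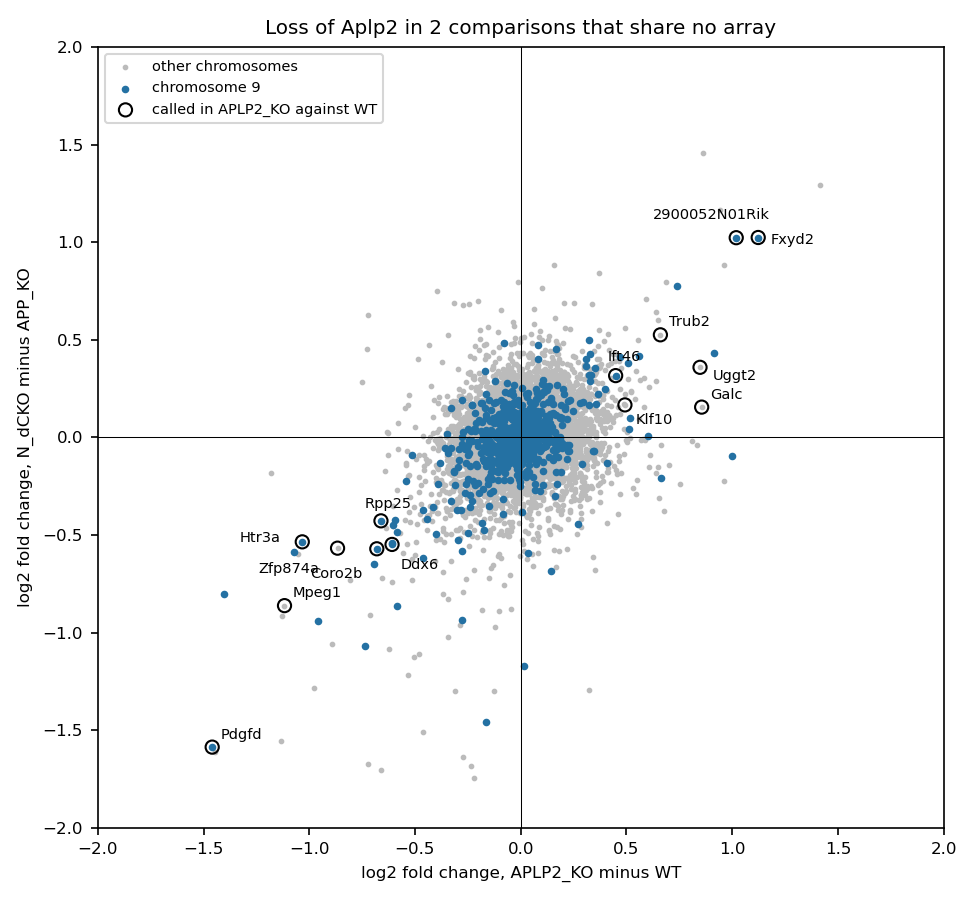
log2 fold change of every tested gene in APLP2_KO against WT (x axis) and in N_dCKO against APP_KO (y axis); grey points are genes on other chromosomes, blue points genes on chromosome 9, and open circles the called genes. All 14 called genes shown lie in the lower left or upper right quadrant; Aplp2 and 10 genes beyond ±2 on either axis are outside the range.

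Genes on chromosome 9 were called at a higher rate than genes elsewhere. Aplp2 left out, 8 of its 672 tested genes were called (1.19%), against 6 of 10955 (0.0548%) on other chromosomes. Arrays did not overlap in 8.63% of the chromosome 9 genes and in 4.14% of the others. An unadjusted p below 0.05 in both comparisons with the same sign was found in 7.29% of the chromosome 9 genes, 1.22% of genes elsewhere and 184 genes (1.58%) in all, while 8 genes passed in both with opposite signs. Chromosomes 3 and 15 came next, with 3.57% and 2.63%. Pearson's r of the fold changes of both comparisons, across genes, which are not independent replicates, was 0.603 on chromosome 9 and 0.301 elsewhere.

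Within 10 Mb of the start of Aplp2, 89 genes were tested and none was called by limma on its brightest probe set; arrays did not overlap in 5.62%, and 7 genes (7.87%) had an unadjusted p below 0.05. Within 5 Mb that p was reached by 4 of 28 genes (14.3%), against 7.44% of all genes. Thyn1, picked after its values were seen, lies within 5 Mb and differed by probe set. Its brightest probe set was at -0.08 (adjusted p = 0.839), while another went from 833.9 ± 75.4 to 352.3 ± 71.9 and was called when each probe set was tested alone (-1.24 ± 0.16, limma adjusted p = 0.000686). The mean over its 3 probe sets was called too (-0.56, adjusted p = 0.0129). Between 10 and 20 Mb, 5 of 114 were called (4.39%): Ddx6, Fxyd2, 2900052N01Rik, Htr3a and Ift46. All 5 lie on the side of higher coordinates, where 26.3% of the 76 genes had non-overlapping arrays, against 13.2% of the 38 on the other side. This split by side was made after the values were seen. Between 20 and 40 Mb, 3 of 157 were called (Pdgfd, Coro2b and Rpp25), and beyond 40 Mb none of 312, with non-overlapping arrays in 6.37% and 5.77%.

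**Figure D4:**
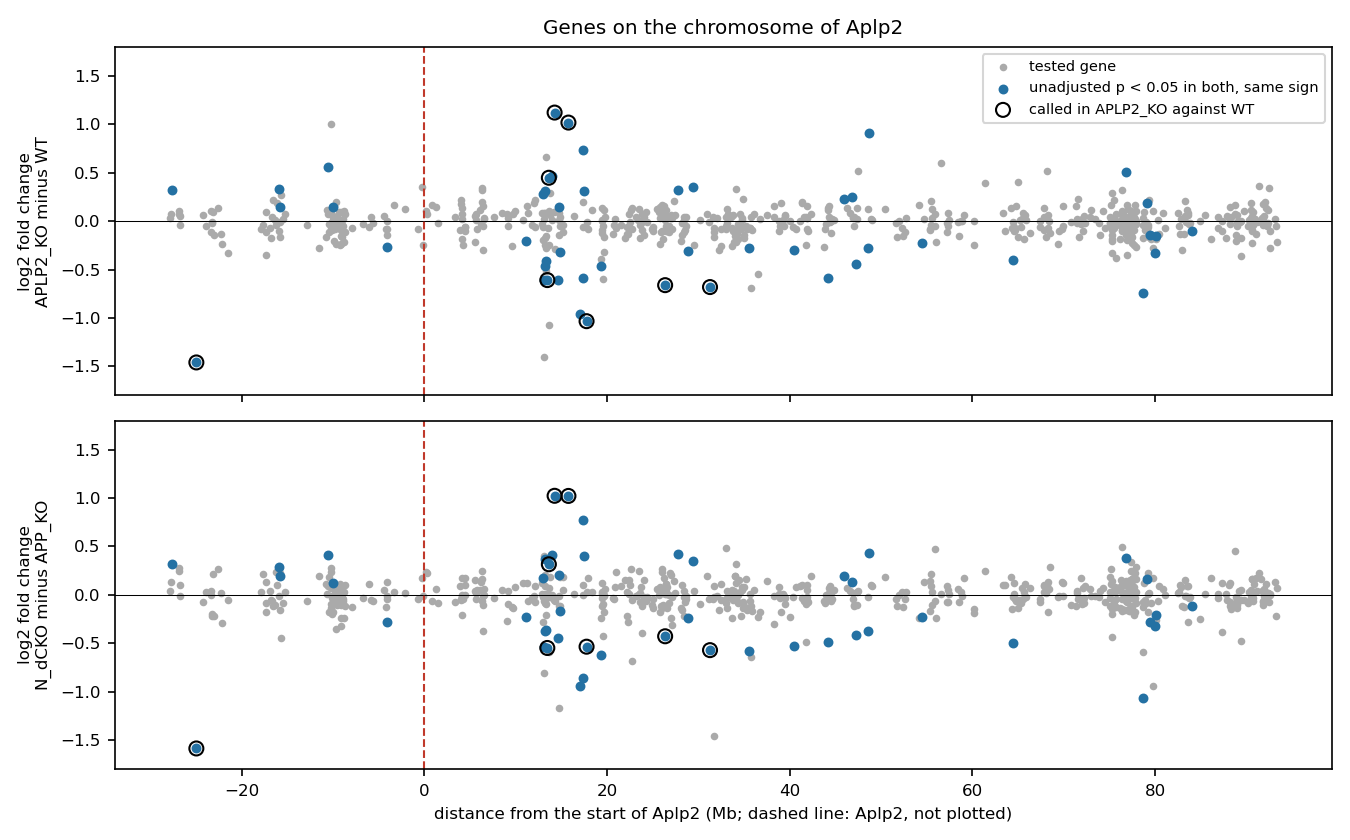
log2 fold change of each tested gene on chromosome 9 against its distance from the start of Aplp2 in Mb, for APLP2_KO against WT (top) and N_dCKO against APP_KO (bottom); blue points had an unadjusted p below 0.05 in both comparisons with the same sign, and circles mark called genes. The 5 called genes between 10 and 20 Mb stand together to the right of Aplp2, and none of the 89 genes within 10 Mb is circled.

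A further 16 uncalled genes on chromosome 9 had an unadjusted p below 0.01 in both comparisons with the same sign, Neo1, Mto1 and Nxpe4 among them. Near the called cluster, Rps25, a protein of the small ribosomal subunit, went from 365.3 ± 19.2 to 272.9 ± 35.7 (log2 fold change -0.42). Its probe set was dim for its class: the 34 ribosomal protein genes tested had a mean log2 level of 12.64 in WT. What part of the Rps25 RNA it reads was not tested. Dpagt1, which starts the lipid-linked sugar chain for N-glycosylation, went from 470.4 ± 69.1 to 337.2 ± 31.5 (-0.46). Nlrx1, a mitochondrial member of the NLR family, was at -0.61, Slc37a4, the glucose-6-phosphate transporter, at 0.31, and Gm5617 at 0.74. Rps25, Dpagt1, Nlrx1, Slc37a4 and Gm5617 were chosen by p, with limma adjusted p from 0.18 (Rps25) to 0.427 (Slc37a4). The WT and APLP2_KO arrays of Slc37a4 and Gm5617 overlapped. The fold changes of these uncalled genes had both signs within 1 stretch of the chromosome.

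Vps26b, a retromer subunit, lies within 10 Mb of Aplp2 and was at -0.26; it was the 1 gene of those 89 (1.12%) with an unadjusted p below 0.05 and the same sign in both comparisons. Zfp846, at 0.56, lies between 10 and 20 Mb off on the side of lower coordinates. Between 20 and 40 Mb, Gucy1a2, a subunit of soluble guanylate cyclase, was at 0.32, and Lrrc49 at 0.35. Beyond 40 Mb, Spink8, a protease inhibitor gene expressed in CA1 pyramidal neurons, read 824.1 to 879.3 in WT and 332.2 to 792.7 in APLP2_KO (-0.74 ± 0.19, adjusted p = 0.196). Tmem30a, a subunit of phospholipid flippases, was at -0.28 on the probe set used and at 0.07, 0.09 and 0.06 on its other 3 tested probe sets, none called. Beyond 40 Mb too were Gm19531 at -0.58 and Inka1 at 0.51. In the second comparison Spink8 (-1.07) and Tmem30a (-0.37) were called.

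Among 46 lists of cell type markers and pathways, 12 held a called gene. The lists were chosen with earlier results of these data known, so counts of calls by list, here and above, are description only. In 9 lists the median log2 fold change was beyond 0.1 in either direction. The median of all tested genes was -0.01, and 53.3% of them were negative. Centring arrays on their medians moved the median of all genes to -0.09 and the negative share to 77.5%, and changed the sign of the median in 26 lists under that or quantile scaling. The medians given below for microglia, interferon response, ER chaperones, choroid plexus, leptomeninges, oligodendrocyte precursors and ependyma kept their sign under both.

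Most microglial markers had lower values in APLP2_KO. Of 23 tested, 20 had a negative log2 fold change, and the median was -0.215. Mpeg1 alone was called. Arrays did not overlap and were lower in 10 of the 23, against 2.69% of all tested genes. The mean log2 level of the list ran from 9.20 to 9.34 over the WT arrays and from 8.94 to 9.10 over the APLP2_KO arrays, so all 4 knockout arrays lay below all 4 WT arrays. Fcrls, a scavenger-receptor-like marker of microglia, went from 731.5 ± 97.4 to 462.2 ± 75 (-0.66 ± 0.15, adjusted p = 0.133). Tyrobp, the signalling adaptor DAP12, went from 844.8 ± 17 to 668.2 ± 45.2 (-0.34 ± 0.08, adjusted p = 0.192).

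The markers did not shift evenly. P2ry12 and Tmem119, which define resting microglia and were picked here after their values were seen, had log2 fold changes of -0.03 and -0.06, and Csf1r, the receptor that microglia need to survive, one of -0.07. The complement genes C1qa, C1qb and C1qc were at -0.21, -0.18 and -0.25, each without overlap of the arrays and uncalled. In the second comparison, where 50.4% of all genes were negative, 22 of 23 microglial genes were negative and Mpeg1, Fcrls and C1qa were called. Interferon response genes, which microglia and other cells express, were negative in 13 of 14, with a median of -0.221 and no call.

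Most ER chaperones and folding enzymes also had lower values in APLP2_KO, none of them called. The unfolded protein response raises these genes when misfolded protein collects in the ER, and part of them carry the ER stress element in their promoters, to which ATF6 binds together with NF-Y. Of 24 tested, 19 had a negative log2 fold change, the median was -0.162, and Uggt2 alone was called, higher. Without overlap 7 of the 24 were lower, against 2.69% of all tested genes. The mean log2 level of the list was 10.81, 10.96, 10.87 and 10.83 in WT and 10.69, 10.75, 10.75 and 10.75 in APLP2_KO, again without overlap. In the second comparison 15 of 24 were negative, with a median of -0.10.

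Hspa5, the main ER chaperone BiP, read 9480, 10690, 9595 and 8679 in WT and 6791, 6842, 8340 and 7162 in APLP2_KO (log2 fold change -0.40 ± 0.10, adjusted p = 0.222). Manf, a secreted ER stress protein, went from 2837 ± 236 to 2171 ± 86.9 (-0.38 ± 0.11), and Sdf2l1, a chaperone cofactor, from 600.1 ± 98.8 to 409.9 ± 34.4 (-0.53 ± 0.17). None of the 3 was called, though the arrays of each were apart.

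The promoters of 4 members are shown to let the shared element be seen beside these values: Hspa5, Creld2 (a disulfide-handling ER protein), Pdia6 (a protein disulfide isomerase) and Hsp90b1 (the ER chaperone GRP94), picked after their values were seen. Each is the 250 bases before the gene's start on the gene's own strand, 5′ to 3′, from RefSeq on GRCm38.p6. The positions are chr2:34771840-34772089 (+) for Hspa5, chr15:88819396-88819645 (+) for Creld2, chr12:17266339-17266588 (+) for Pdia6 and chr10:86705445-86705694 (-) for Hsp90b1. Capitals mark both ends of each match to the element, which is CCAAT and CCACG with any 9 bases between them, on either strand.
Hspa5: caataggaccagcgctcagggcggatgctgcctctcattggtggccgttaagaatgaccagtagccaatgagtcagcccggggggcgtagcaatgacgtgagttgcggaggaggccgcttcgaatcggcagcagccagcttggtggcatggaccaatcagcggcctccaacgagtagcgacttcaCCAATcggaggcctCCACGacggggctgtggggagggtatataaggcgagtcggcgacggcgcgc
Creld2: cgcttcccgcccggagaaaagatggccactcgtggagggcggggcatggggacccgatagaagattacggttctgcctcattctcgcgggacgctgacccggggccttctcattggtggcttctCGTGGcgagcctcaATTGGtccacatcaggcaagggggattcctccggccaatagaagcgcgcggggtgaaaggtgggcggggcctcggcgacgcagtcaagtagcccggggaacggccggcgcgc
Pdia6: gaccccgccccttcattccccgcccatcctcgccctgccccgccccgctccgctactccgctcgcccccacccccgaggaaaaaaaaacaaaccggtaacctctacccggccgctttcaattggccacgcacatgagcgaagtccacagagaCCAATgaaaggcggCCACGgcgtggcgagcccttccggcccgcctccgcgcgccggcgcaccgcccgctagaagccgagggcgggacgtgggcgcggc
Hsp90b1: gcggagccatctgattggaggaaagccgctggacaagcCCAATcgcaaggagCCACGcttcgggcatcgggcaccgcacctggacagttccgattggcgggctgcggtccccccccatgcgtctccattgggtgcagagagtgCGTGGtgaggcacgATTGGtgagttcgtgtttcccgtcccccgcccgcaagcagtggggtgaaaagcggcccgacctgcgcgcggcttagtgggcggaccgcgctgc

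The element begins 65 bases before the start in Hspa5, 98 in Pdia6 and 126 in Creld2, where it is on the other strand; Hsp90b1 holds 2, at 212 bases before the start and, on the other strand, at 107. Searched over both strands of windows that run from 250 bases before to 50 after the start, it was found in 39 of 32851 promoters (0.119%) and in 8 of the 24 listed genes with a promoter in the table. All 8 had negative log2 fold changes, from -0.495 in Creld2 to -0.01 in the chaperone calnexin gene Canx, and none was called. Outside the list, 6 tested genes hold the element, and all 6 were negative too (median -0.198), among them Alg12, which lies beside Creld2, and the ER genes Derl3 and Ero1b. Listed genes without the element were negative as well in 10 of 14, with a median of -0.139 against -0.182 for the 8 with it. In the second comparison 6 of the 14 genes that hold the element were negative. A match describes the sequence and shows neither binding nor a cause.

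**Figure D5:**
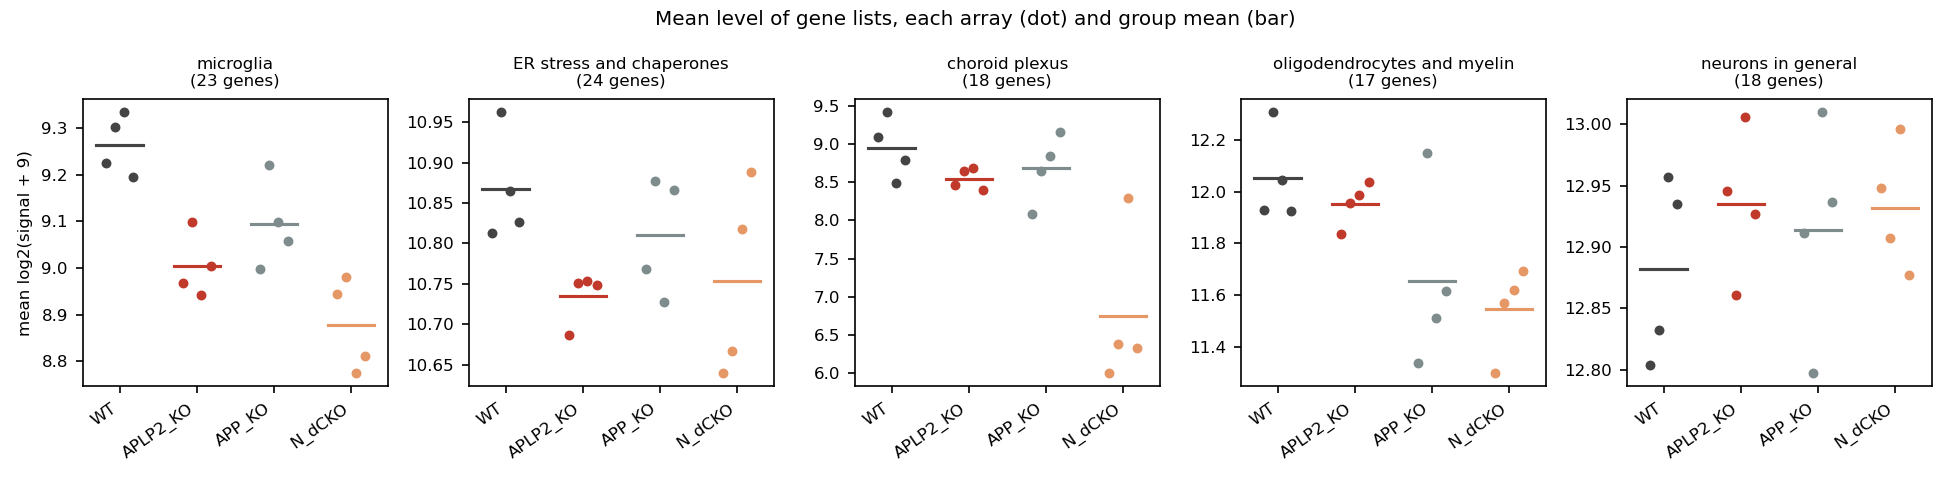
Mean log2(signal + 9) of 5 gene lists in every array of the 4 groups (axes do not start at 0 and differ between panels); dots are arrays and bars are group means. For microglia and for ER stress and chaperones all APLP2_KO arrays lie below all WT arrays, while the groups overlap for choroid plexus, myelin and neurons.

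The machinery around the APP family gave no call. Of 17 secretase and processing genes, Bace1, the beta-secretase, went from 3174 ± 135 to 3510 ± 208 (log2 fold change 0.14 ± 0.06, adjusted p = 0.589). It was the 1 gene of the 17 whose arrays did not overlap, where the share over all tested genes was 4.4%. Bace1 lies on chromosome 9, in the stretch between 10 and 20 Mb from Aplp2 that holds the 5 called genes, and was at 0.20 in the second comparison, with an unadjusted p below 0.05 in both. The gamma-secretase genes Psenen and Psen2 were at -0.09 and -0.20. None of 19 cytoplasmic adaptors, 27 extracellular partners and synaptic adhesion genes and 18 genes of copper, iron and zinc handling was called by limma, with 1, 1 and 0 of them at an unadjusted p below 0.05.

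Markers of tissue next to the hippocampus varied between arrays. Choroid plexus genes were negative in 17 of 18 with a median of -0.455 and no call. Arrays did not overlap in 1 of the 18 (Car12, a carbonic anhydrase, -0.28 ± 0.12), against 4.4% of all tested genes. Car12 lies on chromosome 9, 35.6 Mb from Aplp2. Their mean log2 level ran from 8.49 to 9.42 in WT and from 8.40 to 8.68 in APLP2_KO, and the median was -0.217 without WT array 2. In the second comparison 12 of the 18 were called lower, with 3 N_dCKO arrays between 6.00 and 6.39 and the other at 8.29. Leptomeningeal and fibroblast genes were positive in 12 of 14 with a median of 0.211, against 13 negative of 14 in the second comparison. The mean log2 level of these genes ran from 8.81 to 9.46 in WT and from 9.15 to 9.90 in APLP2_KO. Only APLP2_KO array 4, at 9.90, lay above every WT array. What part these tissues have in the other results was not tested.

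Other brain cell types gave no call by limma beyond Htr3a. Genes of oligodendrocyte precursors were positive in 9 of 12 with a median of 0.126. That median was 0.0486 with arrays centred on their medians, 0.0563 without WT array 2 and 0.0689 without APLP2_KO array 4. The smallest p of the list was that of the proteoglycan gene Cspg5 (0.19 ± 0.07, adjusted p = 0.533). Cspg5 lies on chromosome 9, 79.1 Mb from Aplp2. Ependymal and motile cilia genes were negative in 10 of 12, with a median of -0.115. Ccdc153, a gene of motile cilia, had the lowest value, -1.40 ± 0.39 (231.4 ± 17.1 in WT and 86.53 ± 35.4 in APLP2_KO, adjusted p = 0.298), without overlap of its arrays. Ccdc153 lies on chromosome 9, 13.1 Mb from Aplp2, in the stretch that holds the 5 called genes.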

How the data were processed

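The authors deposited linear intensity values of 45101 probe sets. Per the submitters' processing notes they were made with MAS5, for which the sources used here name no version. The 2% trimmed mean of the deposited intensity was 500 on every array, and this scaling was kept. Names came from the platform annotation, which pairs 34958 probe sets with 1 symbol, 932 with several and leaves 9211 unlisted; 34754 of the first were found in RefSeq's GRCm38.p6 annotation, consulted for symbols and for distances between genes, and 0 symbols changed. The 64 control probe sets were left out.

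Signals were taken as log2(signal + 9). The dimmer part of the probe sets, with a mean log2 value under the median of 6.60 (a signal of 88), was dropped; 22519 stayed, and each gene was represented by its kept probe set with the highest mean, which gave 11668 genes. limma 3.58.1 in R 4.3.3 with data.table, version 1.17.8, fitted 1 mean per group over all 16 arrays with moderated variances that follow an intensity trend (12 residual degrees of freedom, 19.4 in the moderated test). P-values are two-sided, adjusted by Benjamini-Hochberg over all genes of a comparison. The difference of the 2 comparisons was a contrast in the same fit. The fit was tested on simulated data with known changes.

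Titles number the samples 1 to 4 in each group, but same-numbered WT and APLP2_KO arrays deviated together little (correlations 0.0051 to 0.077), so arrays of this comparison were not paired. Named genes are the APP family, every called gene, the uncalled genes with the smallest p and non-overlapping arrays until 30 were named, uncalled chromosome 9 genes with an unadjusted p below 0.01 in both comparisons and the same sign, and up to 4 members of each list described; genes picked otherwise are said to be. Comparison, gene lists and rule were chosen with earlier results of these data known. Alternatives were other scalings, pseudocounts, filters, probe-set rules, variance models, array weights, a replicate block, fewer groups, other windows and leaving out each array; the Gapdh ratio as a covariate, and the count of calls near Aplp2 under each alternative, were added after seeing the data.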

Additional observations from a re-analysis of the deposited data

Results flagged for a closer look

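In 30 named genes and 4 groups, 7 of 120 groups (5.83%) had 1 array far from the other 3; chance flags about 1 in 20 groups. In APLP2_KO these were Fxyd2 in array 2 (signal 542, the others 336 to 364), Filip1 in array 2 (488, the others 288 to 319), Zfp874a in array 1 (146, the others 206 to 214) and Selplg in array 3 (490, the others 449 to 453). In WT, Htr3a stood at 353 in array 1, with the others at 248 to 255. Outside the comparison, Aplp1 stood at 15800 in APP_KO array 3 (the others 14900 to 15000) and Cetn4 at 430 in N_dCKO array 3 (the others 163 to 194). Fxyd2 kept its call without array 2, Zfp874a was not called without APLP2_KO array 1, and Htr3a was not called without WT array 1.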

How the results depend on the processing

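Main counts were 15 called genes in APLP2_KO against WT, 41 in N_dCKO against APP_KO, 8 in both and 9 on chromosome 9. The cause of the changes below was not tested, except that the stricter filter tests fewer genes. Keeping only probe sets above the 75th percentile gave 3, 15, 3 and 3. The ordinary test without moderated variances gave 7, 2, 1 and 2, and no variance trend gave 17 in the second comparison and 5 on chromosome 9. Each probe set alone gave 25 genes and 18 on chromosome 9, and the mean over probe sets 14 on chromosome 9; Ddx6 turned to 0.33 and 0.22 at its other probe sets. Fitting only the groups compared gave 9 in the second comparison and 4 in both. The Gapdh ratio as a covariate gave 8, 20 and, on chromosome 9, 5. Sample numbers do not pair WT with APLP2_KO arrays (correlations 0.0051 to 0.077, 1 of 4 WT arrays closest to its own number), but same-numbered WT and APP_KO arrays deviated together (0.19 to 0.3, 4 of 4), as to a lesser degree did APLP2_KO and N_dCKO arrays (0.082 to 0.2, 4 of 4), a hint from the data and not from the design. The replicate block gave 30 genes, 11 of the 13 next genes among them, 16 in both and 16 on chromosome 9, and with only the groups compared 37, 13 and 14.

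Leaving out 1 array gave 9 to 18 in the first comparison, 19 to 59 in the second (22 without APP_KO 3, 19 without APP_KO 4, 20 without N_dCKO 4), 6 to 11 in both, 5 to 9 on chromosome 9 and 0 to 11 for the difference of the comparisons. Genes called near Aplp2 numbered 0 within 10 Mb, 5 within 20 Mb and 8 within 40 Mb; within 10 Mb the mean over probe sets and each probe set alone gave 1, Thyn1. Aplp2 stayed called under every alternative run, and no called gene other than Ddx6 changed sign.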

Other observations

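A second stretch of genes stood out beside chromosome 9. Exosc9 and Cetn4, both low without Aplp2, lie near each other on chromosome 3. Within 5 Mb of Exosc9, a window chosen after the values were seen, 43 genes were tested and 7 had an unadjusted p below 0.05 in both comparisons with the same sign, against 14 of the other 545 tested on that chromosome. Beside Exosc9 and Cetn4 these were Spata5 (-0.37 in APLP2_KO against WT and -0.46 in N_dCKO against APP_KO), Mccc1, a subunit of the leucine-breakdown enzyme methylcrotonoyl-CoA carboxylase (-0.35 and -0.49), Pex5l (-0.20 and -0.35), Acad9, a mitochondrial complex I assembly factor (0.41 and 0.53), and 4932438A13Rik (0.31 and 0.32). Exosc9 and Cetn4 were called in the second comparison and none of the 7 in the first.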
